A study of Solanum tuberosum with 10 samples.

Results

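A set of 200 potato genes had lower transcript levels in the freshly cut explant and in the grown plantlet than in between. The times in between were 24 h, 48 h and 1 w after the explant was placed on medium. High and low are meant relative to the same gene at the other times. The genes were chosen from the measured values themselves, among 39021 genes with a PGSC identifier in a table of 40430 features. For each gene, a score was taken as the lowest log2 value of the 6 libraries of 24 h, 48 h and 1 w minus the highest log2 value of the 4 libraries of 0 h and 4 w. A gene qualified if its score was above 1, if its lowest middle value was at least 1, and if its mean levels at the 3 middle times lay within 1 of each other. In all, 453 genes met the limits on score and level and 364 also met the limit on the time means, and the 200 highest scores were kept.

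The material was Solanum tuberosum cv. Desirée without any transgene, propagated in vitro. Each explant was 1 node with its leaf, taken from a plantlet in its culture of 4 w, and was laid on Murashige and Skoog medium free of growth regulators. The US group was exposed to ultrasound at once, for 20 min, with a frequency of 35 kHz and a power of 70 W, whereas the control group had the same cutting and culture without ultrasound. Sampling of both groups followed at once (0 h), on the next days (24 h and 48 h), and after 1 w and then 4 w, which gave 5 control and 5 US libraries, with 1 library for each combination. The labels call the tissue leaf throughout, but by the study's methods whole explants were taken up to 48 h and leaves, stems and roots of the new plantlets at 1 w and 4 w. By the same methods, several biological replicates went into each pool, so that plant-to-plant variation could not be estimated.

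A node that is cut from its shoot has to close a wound, release its axillary bud from the inhibition exerted by the apex, and form roots before it becomes an independent plantlet. Such explants import or remobilise sugars and remodel their cell walls while they do so. Secreted enzymes that act in the wall space, among them class III peroxidases and invertases, are well known in these processes. Only 2 of the 200 members carried a description in the study's annotation, a peroxidase 3-like gene and an apoplastic invertase gene. That annotation covers genes the study had picked from these libraries, so these 2 descriptions say nothing about the set as a whole. The other members are given by identifier alone, because the files, the annotation and the reference tables did not pair them with names.

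The values are log2 of the reads of a gene per 1000000 reads (RPM). The step between low values gave library totals of 33850938 to 45899162 reads, with the control 0 h library lowest and the control 24 h library highest. Between 24447 and 26475 features had reads in a library. The number of PGSC genes and other features with 1 to 5 reads ran from 866 in the US 24 h library to 2021 in the US 4 w library. RBCS-2C, a small subunit gene of Rubisco and a defining leaf gene, had 1360 to 8793 RPM across the libraries, so that green tissue was present in each. The marker list held 4 root-type genes, picked by words in their descriptions. They were CASP-like protein 4D1, CASP-like protein 1, a CASPARIAN STRIP INTEGRITY FACTOR 2-like gene and a peroxidase 64-like gene. The study had listed all 4 as differing between US and control in these libraries. Their summed level was 61.6 to 92.6 RPM at 0 h and 55.7 to 182 RPM at 4 w. At the 3 middle times this sum ran from 102 to 459 RPM in the controls and from 112 to 194 RPM in US. At 0 h, in a node with its leaf, CASP-like protein 4D1 alone had 51.5 RPM in the control and 49.5 RPM in US. The sum thus does not report roots alone. None of these 4 genes was without reads in any library, and of the 12 genes of the leaf list 1 had no read in the US 24 h and US 1 w libraries.

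Across the 200 members, the median level in the controls was 1.95 on the log2 RPM scale at the start (0 h), then 4.71 (24 h), 5.03 (48 h), 4.81 (1 w) and, in the plantlet of 4 w, 1.79. In the US libraries, the corresponding medians were 1.27, 4.47, 4.90, 5.39 and 1.06. The members were thus already high 24 h after cutting, and this shape was fixed by the choice of the members and has no test. The median over all 20494 features with a mean log2 level of at least 0 stayed between 4.51 and 4.91. As the libraries hold RNA of whole organs, fewer cells that express a gene and less RNA per cell cannot be told apart. Neither can the age of the culture and the organs sampled at it.

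**Figure D1:**
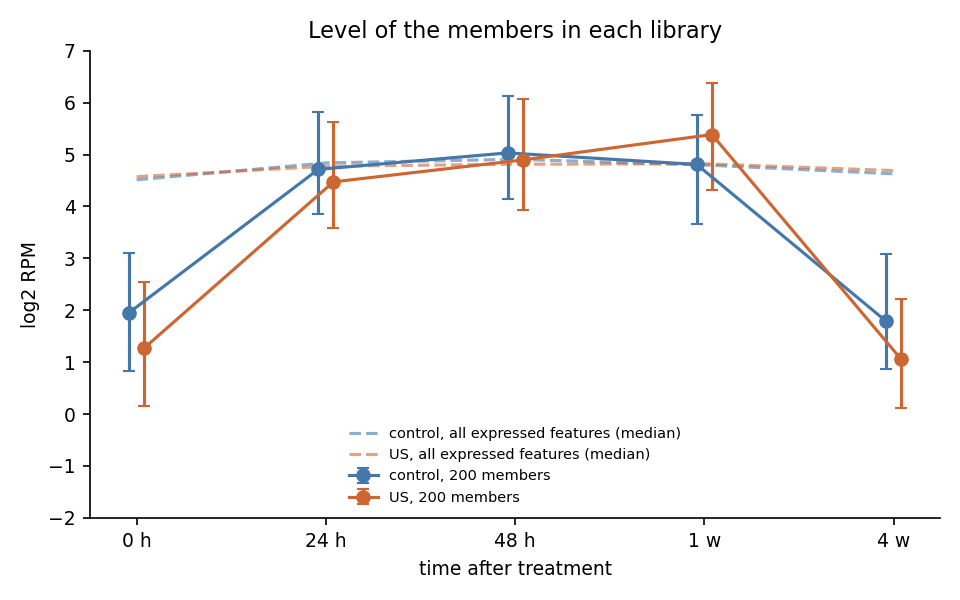
Level of the 200 members on the log2 RPM scale at each time in the control and US libraries (points, medians over members; bars, the middle 50% of members) with the medians over all expressed features as dashed lines. The member medians lie between 4.47 and 5.39 at 24 h, 48 h and 1 w and between 1.06 and 1.95 at 0 h and 4 w, while the dashed lines stay near 4.5 to 4.9.

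Each member's mean over the 6 middle libraries exceeded its mean over the 4 end libraries by 2.05 to 7.67 on the log2 scale, with a median of 3.32, which is a 10.0-fold difference. The smallest of these differences was 4.15-fold, and 139 members were above 8-fold. Together, the members took 0.0653% of the summed RPM of all features in the US 4 w library and 1.06% in the US 1 w library. At the middle times a member had a median of 1213 reads per library and never fewer than 91, and at 0 h and 4 w the median was 112 reads. Levels at the ends therefore carry the larger counting error, and 3 members had no read in at least 1 end library.

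The rule drew its line in a dense part of the ranking. Just inside it, PGSC0003DMG400030993, PGSC0003DMG400013306 and PGSC0003DMG400027363 had scores of 1.58, 1.57 and 1.57. Just outside it, PGSC0003DMG400012493, PGSC0003DMG400025496 and PGSC0003DMG400005948 had scores of 1.56, 1.55 and 1.55. The median score of the members was 2.06.

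The highest score belonged to PGSC0003DMG400000684 (chromosome 7, 45262301-45266758, plus strand, SolTub 3.0, as are all positions here). It had 0, 3.55, 6.04, 7.77 and 0.0436 RPM in the controls, in the order of the 5 times, and 0, 6.91, 4.50, 7.28 and 0 RPM in the US libraries. This gene was close to an on-off pattern: it had 163 to 316 reads in the middle libraries, 2 reads in the control 4 w library and none in the other 3 end libraries. At the depth of the control 0 h library, 0 reads allow up to 3 reads or 0.0886 RPM, and its score of 6.35 rests on the 2 reads of the control 4 w library, its highest end value.

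The next score was 3.44. It belonged to PGSC0003DMG400009375 (chromosome 7, 49627156-49629573, plus strand), with 1.30, 20.6, 41.5, 20.8 and 1.83 RPM in the controls in order of time and 1.75, 19.9, 27.8, 32.9 and 1.19 RPM in US. PGSC0003DMG400000733 (chromosome 1, 86072484-86074144, minus strand) had 1.15, 15.3, 21.4, 12.7 and 1.24 RPM in the controls and 0.466, 11.8, 13.99, 19.5 and 0.355 RPM in US. In both genes the control was highest at 48 h and US at 1 w.

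PGSC0003DMG400026934 (chromosome 6, 53500062-53503598, minus strand) had 6.38, 97.9, 103, 60.9 and 6.63 RPM in the controls and 1.59, 73.9, 122, 121 and 5.30 RPM in US. It was higher in US at 48 h and 1 w and lower at the other times. PGSC0003DMG400020336, at 8.41 to 15.7 RPM in the middle libraries, and PGSC0003DMG400008610, at 4.38 to 10.5 RPM, stayed below 1 RPM in all 4 end libraries. PGSC0003DMG400006020, PGSC0003DMG400023953 and PGSC0003DMG400031800 completed the 10 highest scores, and they too had their highest US value at 1 w, with 29.9, 41.8 and 65.8 RPM.

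The 5 members with the highest RPM were chosen by RPM, which is not corrected for gene length. PGSC0003DMG400024748 (chromosome 1, 77210933-77211712, minus strand) had 163, 841, 731, 809 and 148 RPM in the controls and 115, 729.9, 1123, 1373 and 96.7 RPM in US. PGSC0003DMG400007159 (chromosome 6, 55330264-55330933, minus strand) had 132, 611, 581, 627 and 147 RPM in the controls and 98.4, 537, 736, 992 and 112 RPM in US. Both were level over the middle times in the controls and climbed from 24 h to 1 w in US.

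The same course was seen in PGSC0003DMG400027736, which went from 401 RPM at 24 h to 957 RPM at 1 w in US and stayed at 479 to 607 RPM in the controls. PGSC0003DMG400015525 went from 366 to 731 RPM in US between these times and lay between 339 and 456 RPM in the controls. PGSC0003DMG400025492 was different, with 368, 1005 and 459 RPM in the controls and 666, 501 and 686 RPM in US at 24 h, 48 h and 1 w. Here the control was highest at the one middle time at which US was lowest.

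The rule left the direction of US against control free, since it treats the libraries of a time alike. It read both values, however, so the size and spread of the difference are not free of the rule. At 1 w, 193 of the 200 members were higher in the US library than in the control library, beside 50.5% of all expressed features. The median difference of the members at 1 w was 0.66 on the log2 scale (quartiles, 0.49 and 0.85), or 1.58-fold, and that of all features was 0.01. At 4 w the direction was the opposite: 29 members were higher in US, beside 51% of all features, and the median difference was -0.74 (quartiles, -1.24 and -0.24), or 1.67-fold lower. At 0 h, just after the ultrasound, 32 members were higher in US, beside 51.5% of all features, and the median difference was -0.59 (quartiles, -1.07 and -0.20), or 1.51-fold lower.

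At 24 h, 57 members were higher in US, beside 44.1% of all features, with a median difference of -0.26. At 48 h, 106 members were higher in US, beside 45.7%, with a median of 0.03, so that the members were spread to both sides. Each of these differences rests on 1 pair of libraries, and the 200 members are not independent replicates of it. Lower in US at 0 h, higher at 1 w and lower at 4 w described 138 members, or 69%, and 17.2% of all expressed features.

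**Figure D2:**
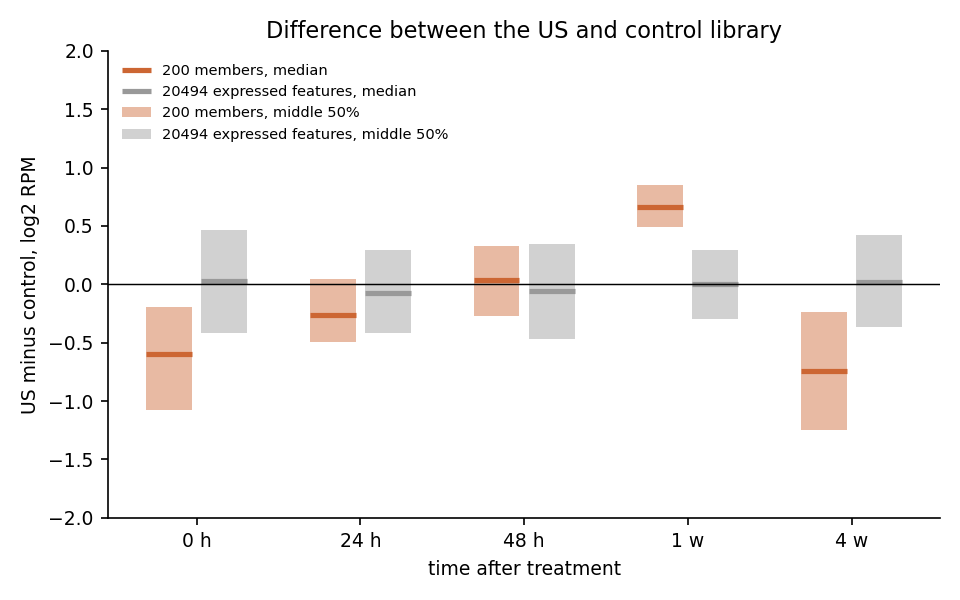
US minus control on the log2 RPM scale at each time for the 200 members and for the 20494 expressed features (lines, medians; boxes, the middle 50%). The member medians are -0.59, -0.26, 0.03, 0.66 and -0.74 in order of time, while those of all features stay between -0.07 and 0.03.

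To keep the choice of members apart from the difference at a time, the rule was run again without both libraries of that time, and the new 200 genes were then read at it. Chosen without 1 w, 174 of 200 genes were higher in US at 1 w (median 0.65). Chosen without 4 w, 36 of 200 were higher in US at 4 w (median -0.86), and chosen without 0 h, 38 of 200 were higher in US at 0 h (median -0.60). The numbers were 50 for 24 h and 105 for 48 h. Read at the left-out time, 180 of the genes chosen without 1 w were above all end libraries used in both 1 w libraries. Of those chosen without 4 w, 170 were below all middle libraries in both 4 w libraries. No such share of all features stands beside these counts, and the genes were still chosen on the other times. The counts therefore have no baseline and are not a test of the shape. Between 94 and 185 of the genes were shared with the 200 members.

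The 164 genes that met every limit with a lower score behaved in the same direction at both late times. Of these, 149 were higher in US at 1 w, with a median difference of 0.51, and 26 were higher in US at 4 w, with a median of -0.58. At 0 h, 56 of them were higher in US and the median was -0.23.

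Other quantities also differed between the US and control libraries of a time, and their part in these differences was not tested. Apart from RBCS-2C, the genes of the leaf and root-type lists had been listed by the study as differing between US and control. Their differences are therefore not an independent measure of the organs sampled. The summed level of the 12 genes of the leaf list differed by -0.47, -0.65, 1.41, -0.75 and 0.46 on the log2 scale, in order of time, US minus control, with 1, 0, 10, 0 and 7 of the genes higher in US. For the 7 chlorophyll a-b binding genes in that list the sums differed by -0.94, -0.63, 1.04, -1.598 and -0.48. That of the 4 root-type genes differed by -0.59, 0.93, -2.04, -0.63 and -1.71, with 0, 4, 1, 2 and 1 of them higher in US. The number of features with 1 to 5 reads differed by -0.01, -0.99, 0.24, -0.60 and 0.74 on the same scale. At 1 w, where the members were higher in US, the leaf sum and the root-type sum were lower in US, although 2 of the 4 root-type genes were higher. At 4 w, where the members were lower, the leaf sum was higher and the root-type sum lower. RBCS-2C made up most of that leaf sum, with 6193 of 6898 RPM in the control and 8793 of 9487 RPM in US. The chlorophyll a-b binding sum was lower in US at 4 w, with 2 of its 7 genes higher.

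Differences of single members were mostly moderate. By the rule of size, a log2 difference of at least 2 (4-fold) with at least 1 RPM in the higher library, no member was higher in US at any time. The corresponding shares over all PGSC genes were, in order of time, 1.67%, 1.36%, 1.37%, 0.518% and 2.38%. At 0 h, 5 of the 177 members with such a level were lower in US, beside 1.92% of all genes, and at 4 w, 9 of 182 were lower, beside 3.04%. None was lower at 24 h, 48 h or 1 w, where the shares over all genes were 1.8%, 2.65% and 1.17%. At these times the score disfavours a wide gap between control and US, so these counts were in part fixed by the rule.

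With a log2 difference of at least 1 (2-fold), 25 of 200 members were higher in US at 1 w, beside 3.53% of all genes, and none was lower, beside 5.03%. At 4 w, 69 of 182 members were lower, beside 8.53%, and 2 were higher, beside 9.55%. At 0 h, 47 of 177 members were lower, beside 9.46%, and 1 was higher, beside 9.75%. At 24 h, 4 members were higher and 4 were lower, beside 7.83% and 7.65%. At 48 h, 2 were higher and 13 were lower, beside 6.75% and 11.6%. The shares over all genes cover genes of every level and were not matched to the low end levels of the members. The larger differences thus stood at 0 h and 4 w on the lower side and at 1 w on the higher side. The score uses the lowest middle and the highest end library, so it disfavours gaps at the middle times. It sets no limit on how low the other end libraries lie. The sizes at middle and end times are therefore not compared on equal terms.

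The largest difference at 1 w was seen in PGSC0003DMG400008444 (chromosome 5, 49753260-49754880, minus strand). It had 1.33, 16.7, 65.7, 11.1 and 3.10 RPM in the controls and 0.603, 20.8, 20.1, 41.2 and 1.52 RPM in US. At 1 w the US library was 3.70-fold higher (95% exact conditional interval, 3.34 to 4.12, which covers counting error alone). At 48 h the same gene was lower in US, so its high control value came 1 sampling time before its high US value.

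PGSC0003DMG400021803 had the largest difference in the other direction at 1 w. It had 0.561, 4.53, 8.65, 7.50 and 1.48 RPM in the controls and 0.686, 5.77, 6.08, 4.54 and 1.44 RPM in US, and the US library was 1.65-fold lower at 1 w (interval, 1.37 to 1.99). It was 1 of the 7 members that were lower in US at this time.

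At 4 w, PGSC0003DMG400030593 (chromosome 2, 41576324-41577018, plus strand) had 3.56 RPM in the control and 0.177 RPM in US, or 163 and 7 reads, a 20.0-fold lower value in US (interval, 9.51 to 50.6). At the earlier times it had 31.4, 224, 191 and 101 RPM in the controls and 33.0, 144, 287 and 257 RPM in US. PGSC0003DMG400027666 had 66 reads in the control 4 w library and 1 read in the US 4 w library, a ratio of 56.8 with an interval of 9.85 to 2277. Both lay far below the members' median of 2.08 RPM in the US 4 w library.

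PGSC0003DMG400023207 (chromosome 10, 46706335-46707385, minus strand) went the other way. It had 1.57, 7.73, 5.07, 4.89 and 0 RPM in the controls and 1.51, 5.11, 12.8, 13.9 and 0.482 RPM in US. At 4 w it had no read in the control and 19 reads in US, higher by a fold with a lower interval limit of 5.42. At 48 h it was the member with the largest difference towards US, 2.52-fold higher (interval, 2.14 to 2.99).

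At 0 h, the largest difference was that of PGSC0003DMG400030376 (chromosome 6, 57446996-57453781, plus strand). The control held 16 reads and US none, lower by a fold with a lower interval limit of 4.15. Its levels were 0.473, 4.27, 3.84, 6.20 and 0.502 RPM in the controls and 0, 8.66, 5.42, 7.16 and 0.0507 RPM in US. PGSC0003DMG400015287 had the largest difference towards US at 0 h, on 20 control reads and 53 US reads (2.46-fold higher, interval 1.45 to 4.34). At 24 h the largest fold towards the control was that of PGSC0003DMG401027032, with 215 RPM in the control and 87.5 RPM in US.

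The peroxidase 3-like gene PGSC0003DMG400005273 (chromosome 5, 42534436-42536130, plus strand) ranked 6 by score. Class III peroxidases are secreted enzymes that use hydrogen peroxide to oxidise phenolics in the cell wall, which can cross-link the wall or build lignin. The gene had 8.74, 89.3, 197.7, 79.7 and 3.60 RPM in the controls and 5.79, 220.3, 93.9, 215 and 2.71 RPM in US. The controls formed a single peak at 48 h, whereas US had high values at 24 h and 1 w and a lower one between them. The US library was 2.47-fold higher at 24 h (interval, 2.38 to 2.56), 2.11-fold lower at 48 h (2.03 to 2.19) and 2.70-fold higher at 1 w (2.59 to 2.81). These intervals are narrow because the gene had 3241 to 8707 reads in these libraries, and they hold nothing of the variation between plants.

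Its neighbour PGSC0003DMG400005279 (chromosome 5, 42523943-42525912) was also a member. It lies 8523 bases away on the other strand with no listed feature between them. It had 1.15, 29.0, 83.4, 31.4 and 2.75 RPM in the controls and 0.548, 69.5, 23.0, 34.5 and 5.53 RPM in US. The US minus control differences were 1.26 at 24 h and -1.86 at 48 h on the log2 scale, and those of the peroxidase 3-like gene were 1.30 and -1.07. The pair thus held both the member with the largest difference towards US at 24 h and the member with the largest difference towards the control at 48 h. At 1 w the differences were unlike, with 0.13 in the neighbour and 1.43 in the peroxidase 3-like gene.

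The apoplastic invertase gene PGSC0003DMG401028252 (chromosome 10, 55840813-55843004, plus strand) ranked 163. Like the peroxidase 3-like gene, it has a description because the study listed it among its genes for 1 w, so the 1 w differences of both genes are not independent of that choice. Apoplastic invertase splits sucrose into glucose and fructose outside the cell and is known for feeding growing sink tissues. The gene had 15.9, 56.5, 105, 53.2 and 8.68 RPM in the controls and 14.9, 52.5, 111, 143 and 5.10 RPM in US. Up to 48 h the curves ran close together, with US over control ratios of 0.940, 0.929 and 1.06. They parted at 1 w, where US was 2.69-fold higher (interval, 2.56 to 2.82), and at 4 w US was 1.70-fold lower (1.43 to 2.03).

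**Figure D3:**
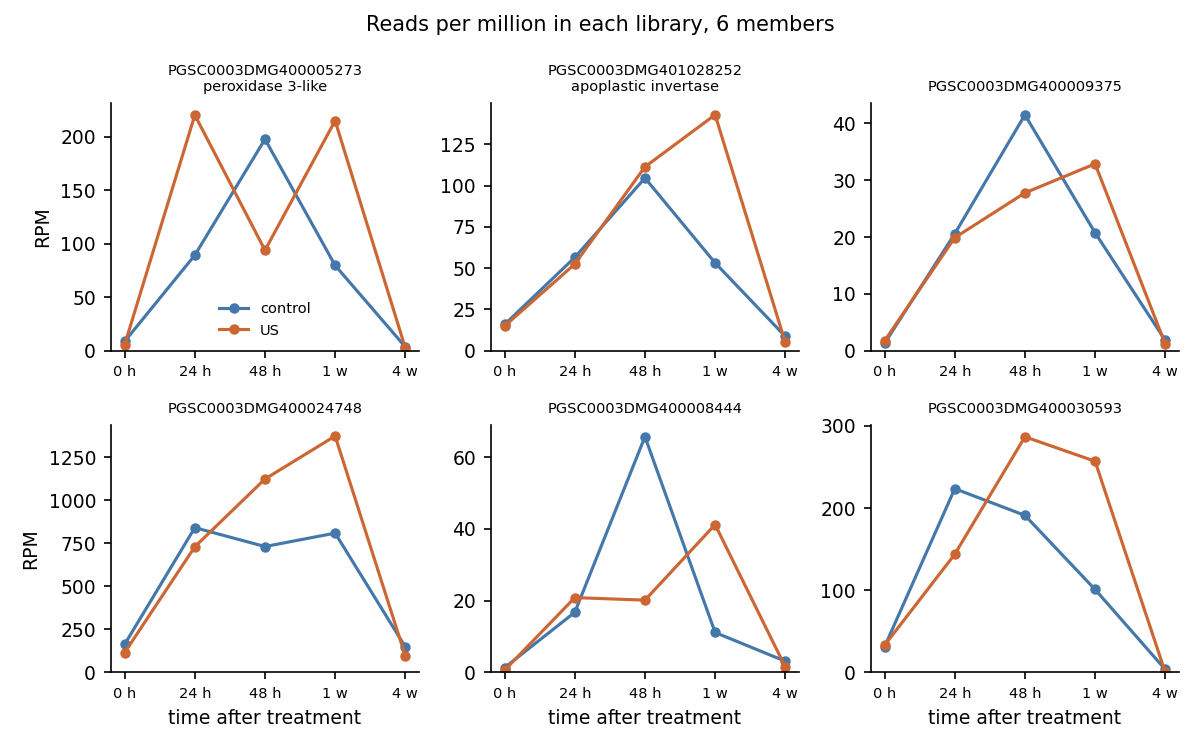
RPM in each library for 6 members, control and US at each time, 1 library per point and no error estimate. The peroxidase 3-like gene is at 220.3 and 215 RPM in US at 24 h and 1 w and at 197.7 RPM in the control at 48 h, and the apoplastic invertase gene is at 143 RPM in US and 53.2 RPM in the control at 1 w.

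The time at which a member was highest differed between the treatments. Among 24 h, 48 h and 1 w, 113 members (56.5%) were highest at 48 h in the controls, 45 at 24 h and 42 at 1 w. In US, 170 members (85%) were highest at 1 w, 20 at 48 h and 10 at 24 h. Over all expressed features, 38.8% were highest at 48 h in the controls and 38.1% at 1 w in US. Highest at 48 h in the control and at 1 w in US described 93 members, or 46.5%, and 9.36% of all features. The rule kept the time means within 1 of each other and thus limited how far a member could move between these times, but it did not set the order within a treatment.

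**Figure D4:**
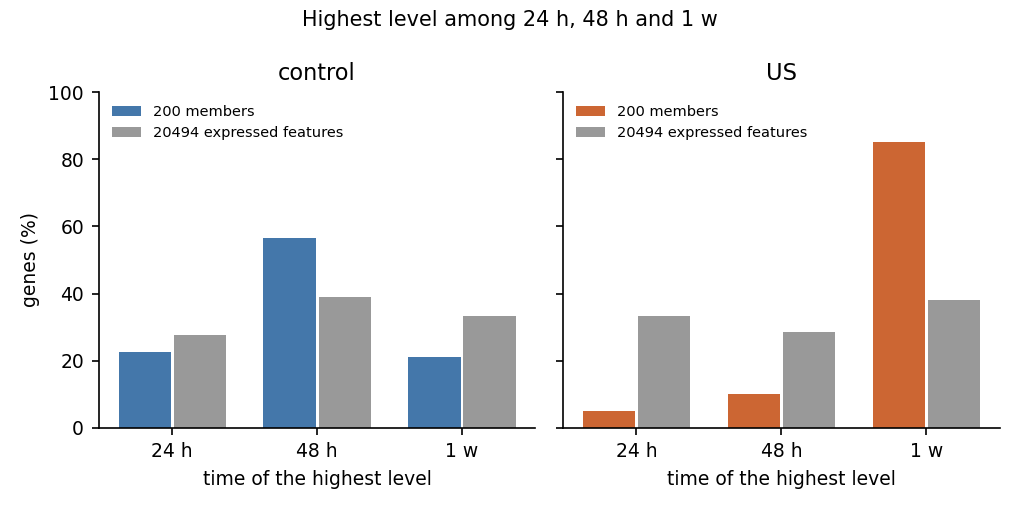
Share of genes whose highest level among 24 h, 48 h and 1 w fell at each of these times, for the 200 members and the 20494 expressed features, in the controls and in US. The members' tallest bar is 56.5% at 48 h in the controls and 85% at 1 w in US.

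The steps between neighbouring times were read from the same values. From 24 h to 48 h the median change of the members was 0.22 on the log2 scale in the controls and 0.48 in US. In this step 128 and 162 members went up, beside 50.1% and 54.7% of all expressed features. From 48 h to 1 w the median change was -0.24 in the controls and 0.46 in US. Here 66 and 178 members went up, beside 45.4% and 54.1% of all expressed features. The limit on the time means bounds the mean of these steps over the treatments. The drop from 1 w to 4 w had a median of -2.86 in the controls and -4.31 in US, and every member took part in it, as the rule required.

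The order of signs over the 5 times had 3 frequent courses. Lower in US at 0 h and 24 h, higher at 48 h and 1 w, lower at 4 w was found in 68 members (34%) and in 4.09% of all expressed features. The alternating course of the peroxidase 3-like gene, lower at 0 h, higher at 24 h, lower at 48 h, higher at 1 w and lower at 4 w, was found in 31 members (15.5%) and in 8.54% of all features. Another 31 members were higher in US at 1 w alone, beside 2.49% of all features.

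Put in another form, the same differences made the span between the middle and the end libraries wider in US. The rule read both the middle and the end values, so the size of the span was in part fixed by it. The median of this span over the members was 2.84 in the controls (7.16-fold) and 3.71 in US (13.1-fold). It was larger in US in 187 of the 200 members, beside 45.7% of all expressed features.

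These differences were tested across all features with limma, taking the times as blocks, since there was no replicate within a time, so that its error is the spread of the US difference between times. US against control over the 5 times gave no feature with an adjusted p (Benjamini-Hochberg) under 0.05 in either direction, 0% of 20494. At an unadjusted p under 0.05, 171 features were higher and 404 were lower in US, and among the members none was higher and 2 were lower. All members but 2 were in the fit; PGSC0003DMG400000684 and PGSC0003DMG400012600 had a mean log2 level below 0.

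The second fit asked whether the US difference at 24 h, 48 h and 1 w differed from that at 0 h and 4 w. Again no feature was called in either direction (0%), and the lowest adjusted p of a member was 0.674 (limma). The median of this contrast was 0.78 over the members and -0.07 over all features, and the estimate was positive in all but 13 of the members fitted. The score read the same libraries and disfavours gaps between control and US at the middle times, which enter the error of this fit. The members also share these libraries and are not replicates, so the shares that follow are a description only. At an unadjusted p under 0.05, 52 of the members fitted (26.3%) were higher in this contrast and none was lower, beside 3.03% and 4.27% of all features. Without the 1 w libraries this number was 8, with a median of 0.54, and without the 4 w libraries it was 30.

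Levels at 4 w and at 0 h could be compared with limma as well, with control and US of a time standing in for replicates. Over all features, 14.2% were called higher and 12.9% lower at 4 w. Of the members fitted, 2 were called higher and 4 lower, but the rule kept genes for which both times were low, so nothing is read from this count. The members called lower at 4 w were PGSC0003DMG400030593 (log2 difference -5.34 with an SE of 1.07, adjusted p = 0.00751 in limma), PGSC0003DMG400023207, PGSC0003DMG400021106 and PGSC0003DMG400005123. Those called higher were PGSC0003DMG400005279 (2.29 with an SE of 0.71, adjusted p = 0.0414 in limma) and PGSC0003DMG400004796. These calls are a description, since the rule read the same libraries. PGSC0003DMG400023207 had no read in the control 4 w library, a value set to 0.9 read in the fit.

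PGSC0003DMG400021106 (chromosome 2, 29387465-29390057, minus strand) had 27.1, 118, 173, 111 and 8.97 RPM in the controls and 20.5, 86.6, 125, 174 and 4.54 RPM in US, so it ended below its start in both treatments. PGSC0003DMG400005123 likewise went from 5.41 to 1.55 RPM in the controls and from 2.96 to 1.19 RPM in US between 0 h and 4 w. PGSC0003DMG400004796 (chromosome 8, 52538827-52539655, plus strand) ended above its start, with 1.77 and 5.04 RPM in the controls and 0.466 and 3.42 RPM in US. PGSC0003DMG400013001, PGSC0003DMG400012600 and PGSC0003DMG400030307 were the other members with the largest 4 w minus 0 h differences, with means over the treatments of 1.56, 1.421 and 1.38, and of the first and last, which were in the fit, neither was called.

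The members were spread over all 12 chromosomes, with 32 on chromosome 1, 26 on chromosome 2 and 24 on chromosome 3. Chromosome 1 held 16% of the members and 12.5% of the expressed features, chromosome 7 held 10% and 7.21%, and chromosome 8 held 3.5% and 6.99%. Of the members, 98 lay on the plus strand and 102 on the minus strand. The median span from start to end, introns included, was 3282 bases, beside 3554 over all expressed features, and it ran from 351 to 9917 bases.

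In 13 cases a member had another member within 20 kb. No such count over all features stands beside it, so no clustering is read from these pairs. Of these pairs, 4 overlapped on opposite strands, and their reads cannot be assigned with certainty, since the sources do not say whether strand was used in the counting. In all, 11 members (5.5%) overlapped another feature, beside 11.7% of the expressed features. Without these 11, 182 of 189 members were higher in US at 1 w and 28 at 4 w.

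The remaining 9 pairs were separate, and 5 of them had no listed feature between the genes. The closest were PGSC0003DMG400023523 and PGSC0003DMG400023522 (chromosome 5, 50351071-50351602 and 50353110-50353515), 1507 bases apart on the plus strand. The first had 17.3, 129, 129, 146 and 13.9 RPM in the controls and 10.9, 98.7, 167, 262 and 11.3 RPM in US. The second had 6.50, 30.9, 23.7, 32.9 and 4.30 RPM in the controls and 1.84, 30.6, 32.4, 59.4 and 1.19 RPM in US. Both had their highest value at 1 w in both treatments, with US above control.

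PGSC0003DMG400001119 and PGSC0003DMG400001118 (chromosome 1, 63451347-63452002 and 63464447-63468323) formed a pair 12444 bases apart on the minus strand. They had 316 and 27.6 RPM in US at 1 w, beside 196 and 16.2 RPM in the controls. PGSC0003DMG400018992 and PGSC0003DMG400018991, further along this chromosome, were 6154 bases apart, and PGSC0003DMG400013449 and PGSC0003DMG400013399 on chromosome 3 were 10105 bases apart on opposite strands. All 6 of these genes were higher in US than in the control at 1 w. The 4 pairs with other features between them lay on chromosomes 2, 4, 6 and 7.

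Of 367 features with a description in the study's annotation, 2 were members, which is 1% of the members beside 1.64% of the expressed features. That annotation covers genes the study had picked from these libraries, so it is not an independent sample. Of its 30 expressed cell wall genes, none was a member and 12 had a score above 0. Of its 14 expressed peroxidase and redox genes, 5 had a score above 0 and the peroxidase 3-like gene was the single member. For the other lists, no member was found among 16 lipid transfer, cutin or wax genes, 25 protease inhibitor and defence genes, 11 photosynthesis genes, 24 transcription factor genes, 14 transport genes, 7 cell division and growth genes and 5 root and Casparian strip genes. In these other lists, a score above 0 was held by 3 protease inhibitor and defence genes, 2 transcription factor genes and 1 root and Casparian strip gene. None was found in the remaining lists. Over all expressed PGSC genes, 2826 of 20432 had a score above 0. The median score was -0.60 in the cell wall list and -2.09 in the peroxidase and redox list, beside -0.99 over all expressed PGSC genes. Members were rare among the expressed genes and the lists are short, so nothing is read from lists without a member. The study had picked these genes as differing between US and control. The score disfavours wide gaps between control and US at the middle times, so low scores were in part fixed by the rule.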

How the data were processed

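From polyadenylated RNA, 10 libraries were sequenced as paired ends. The authors trimmed the reads (Trim Galore 0.5.0), aligned them to SolTub 3.0 (HISAT2 2.1.0), counted those in exons with SeqMonk, and deposited log2 values of reads per 1000000 reads (log2 RPM); the labels also list CASAVA 1.7. Of nonzero values, 99.98% lay within 0.1 of a whole read (a gene without reads being given 0.9 read). Summed over features the values came to 1709850 to 1774900 RPM per library, above 1000000, so a read may be counted more than once, and counting intervals may be too narrow. Intervals and floors cover counting error only.

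Groups came from the labels. The members and lists were chosen with earlier results of these data known. Features whose log2 RPM averaged 0 or more (20494) were fitted with limma 3.58.1 in R 4.3.3, with time blocks and Benjamini-Hochberg adjustment; the fits were tested on simulated data. No count model was used, since the deposited values are not counts. Ratios used reads rebuilt from the step between values, with exact conditional 95% intervals (scipy 1.17.1).

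Genes were named by a fixed rule: the 10 highest scores, the 5 highest middle levels, the 5 largest and 5 smallest 4 w minus 0 h differences, the largest US difference in each direction at each time, members with a description, members within 20 kb of each other, and ranks 198 to 203. Alternatives were quantile and median scaling, log2(RPM + 1), other filters, other readings of the rule, other sizes and leaving out libraries or times.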

Additional observations from a re-analysis of the deposited data

Results flagged for a closer look

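The members' median US minus control difference changed sign between times: it was -0.59 at 0 h, 0.66 at 1 w and -0.74 at 4 w on the log2 scale. The difference between times was tested gene by gene across all features in limma, as the contrast of the middle against the end times, where no feature passed; the change from 1 w to 4 w on its own was not tested, since each time has 1 library per treatment.

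In the peroxidase 3-like gene PGSC0003DMG400005273, the US library was above the control at 24 h (1.30 on the log2 scale) and below it at 48 h (-1.07). Its neighbour PGSC0003DMG400005279 showed the same change, with 1.26 at 24 h and -1.86 at 48 h. The differences between these times were not tested.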

How the results depend on the processing

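Under quantile scaling, centring on the median gene, log2(RPM + 1), the other readings of the rule, leaving out overlapping members and choosing the members without the time read, the counts of members higher in US stayed within 1.5 times the reported count at every time. The counts highest at 48 h in the controls (100 to 113) and at 1 w in US (166 to 170) also did so under the 3 scalings, the alternatives run for them. These scalings and readings of these counts were added after the data had been seen. Of the 200 members, 159 to 185 were chosen again under the other readings of the rule, and 139 to 191 when 1 library was left out. Both treatment fits called no member under any scaling, filter or left-out time. In the fit of the middle against the end times, the number of members with an unadjusted p under 0.05 in the positive direction was 52 and ran from 8 without 1 w to 66 without 24 h or with centring.

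The number of members called between 4 w and 0 h was 6 and became 2 with log2(RPM + 1) and 3 without a filter on low values; it was 5 or 6 when a middle time was left out. Members past the rule of size numbered 5 at 0 h and 9 at 4 w. With log2(RPM + 1) these became 1 and 0, and quantile scaling and a minimum of 4 RPM gave 4 and 2 at 4 w. At a smaller size, a log2 difference of 1 or more, the counts were 48, 8, 15, 25 and 71 in order of time, since the limit is lower. The treatment fits already paired the control and US library of each time as a block, and no fit with a further replicate block could be made, because each group holds 1 library.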
